A study of Rattus norvegicus with 6 samples.

Results

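The 34 interferon-stimulated genes described here encode antiviral effectors, RNA sensors, enzymes and the transcription factors that regulate them. They were chosen by symbol, and a symbol was found on the array through the accession of each probe. Of the 34 members, 31 had a probe and 30 were tested, among 31193 transcripts tested in all. Each tested member is represented by its probe of the highest mean signal. Ifi44l, Herc6 and Xaf1 matched no probe, and Ifit1 was well above background on 1 of 6 arrays and was not tested. The 30 tested members were well above background on all 6 arrays, so none of them entered through 1 group alone.

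RNA came from renal cortex, and the animals were male Sprague-Dawley rats, Crl:CD(SD), 5 weeks old when purchased. The treated group of 3 rats was given carbon tetrachloride (CCl4), a chlorinated solvent that becomes toxic once cytochrome P450 enzymes have activated it, at 100 mg/kg/day for 4 weeks, and the control group of 3 rats was given corn oil for 4 weeks. This treatment is the one in the sample labels, although the text on the design speaks of benzyl acetate and calls the samples biological replicates. Whole cortex was measured on 1 Cy3 array per rat, with no separation of cell types, and precision is limited by there being 3 arrays in a group.

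Interferons are secreted proteins that warn cells of infection. Type I interferons signal through a receptor made of Ifnar1 and Ifnar2 to a complex that holds Stat2 and Irf9 and binds the interferon-stimulated response element (ISRE) near the genes it activates. Interferon gamma signals through Ifngr1 and Ifngr2, and many of its target genes carry the gamma-activated site (GAS). In kidney, tubular epithelium, endothelium and resident leukocytes can all answer to interferon, so a signal from whole cortex is a sum over these cells.

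Pairs of arrays had correlations from 0.9914 to 0.9928 within the carbon tetrachloride group, from 0.9917 to 0.9932 within the corn oil group and from 0.9907 to 0.9937 between them, and 68.5% to 72.1% of the probes on an array exceeded background. Slide 2, read in scan 2, held carbon tetrachloride replicate 3 and no other array, and the other 5 shared slide 1 and scan 1. That slide and that array cannot be told apart. Counts of lower and higher genes over all members and over the pathway lists are therefore also given within slide 1, with 2 carbon tetrachloride and 3 corn oil arrays. So are the median changes, where given, of role groups and marker lists. All 6 proximal tubule markers (Lrp2, Cubn, Slc34a1, Slc5a2, Slc22a6 and Miox), which mark the main epithelium of the cortex, were tested, and their summed linear signal was 1411 to 1572 times the array's 75th percentile in the carbon tetrachloride group, against 1353 to 1533 times in the corn oil group.

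The promoters of a few members are shown first because interferon acts through elements in such windows. Members with a match to the letters searched for are shown beside a member with no such match. Promoter windows from RefSeq on the GRCr8 build, with 250 bases before and 50 bases after the gene start, were found for 27 of the 34 members, and Ifit1, Ifit2, Oas2, Mx2, Isg15, Usp18 and Dhx58 had none in the table. The ISRE core was searched on both strands as GAAA, any 2 bases and GAAA again. It was present in 19 of the 27 windows (70.4%), against 3.92% of all 33469 windows of the same length. The GAS core, searched as TTCNNNGAA, which reads the same on both strands, was present in 9 of the 27 (33.3%), against 8.87% of all windows. The members were chosen as interferon-induced genes, so these shares describe the list and are not evidence for it, and a match is a run of letters and not a shown binding site.

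Of the windows printed here, Rsad2 and Cmpk2 are the adjacent pair with the smallest p-values, Ifi44 and Ifit3 are members with their lowest value on carbon tetrachloride replicate 3, and Oas1a and Oas1b are related genes with different patterns across the arrays. Each is given 5′ to 3′ on the strand of its gene. Rsad2 lies at chr6:48788071-48788370, minus strand, Cmpk2 at chr6:48802600-48802899, plus strand, Ifi44 at chr2:243303791-243304090, minus strand, Ifit3 at chr1:241527076-241527375, plus strand, Oas1a at chr12:41330216-41330515, plus strand and Oas1b at chr12:41395803-41396102, minus strand. Capitals mark each ISRE core match, and overlapping matches run together.
Rsad2: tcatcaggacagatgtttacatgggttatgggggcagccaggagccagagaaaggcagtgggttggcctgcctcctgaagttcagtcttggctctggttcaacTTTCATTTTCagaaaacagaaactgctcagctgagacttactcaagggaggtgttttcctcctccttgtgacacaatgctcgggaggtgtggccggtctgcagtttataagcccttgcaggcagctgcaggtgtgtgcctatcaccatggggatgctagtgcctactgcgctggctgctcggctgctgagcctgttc
Cmpk2: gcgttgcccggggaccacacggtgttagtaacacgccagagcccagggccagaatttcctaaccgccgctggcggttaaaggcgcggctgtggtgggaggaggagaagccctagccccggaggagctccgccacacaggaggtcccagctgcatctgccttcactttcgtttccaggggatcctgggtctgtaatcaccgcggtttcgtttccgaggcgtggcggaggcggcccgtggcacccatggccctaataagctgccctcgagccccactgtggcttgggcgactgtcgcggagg
Ifi44: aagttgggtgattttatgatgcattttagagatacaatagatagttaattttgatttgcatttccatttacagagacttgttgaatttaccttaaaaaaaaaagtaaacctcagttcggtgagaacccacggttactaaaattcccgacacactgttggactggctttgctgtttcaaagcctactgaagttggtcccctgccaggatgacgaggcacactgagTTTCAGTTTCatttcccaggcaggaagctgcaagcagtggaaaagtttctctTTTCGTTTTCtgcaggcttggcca
Ifit3: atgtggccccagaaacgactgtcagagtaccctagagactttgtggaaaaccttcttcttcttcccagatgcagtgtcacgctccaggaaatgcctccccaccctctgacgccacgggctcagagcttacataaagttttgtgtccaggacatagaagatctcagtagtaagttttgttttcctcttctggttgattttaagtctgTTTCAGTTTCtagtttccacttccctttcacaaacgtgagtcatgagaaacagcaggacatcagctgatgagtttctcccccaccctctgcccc
Oas1a: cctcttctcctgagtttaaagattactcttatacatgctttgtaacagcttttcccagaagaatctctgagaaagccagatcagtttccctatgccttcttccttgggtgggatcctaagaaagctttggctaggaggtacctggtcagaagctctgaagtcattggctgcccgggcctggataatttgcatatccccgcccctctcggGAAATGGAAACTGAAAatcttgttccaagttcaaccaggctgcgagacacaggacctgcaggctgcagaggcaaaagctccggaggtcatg
Oas1b: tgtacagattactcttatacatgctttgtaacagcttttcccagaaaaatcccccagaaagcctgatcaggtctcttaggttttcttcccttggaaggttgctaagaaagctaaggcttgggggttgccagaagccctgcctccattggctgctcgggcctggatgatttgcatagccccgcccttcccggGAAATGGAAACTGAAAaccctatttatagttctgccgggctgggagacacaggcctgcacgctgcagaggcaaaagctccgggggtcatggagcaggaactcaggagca

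Oas1a and Oas1b carry the same pair of overlapping cores, Ifi44 carries 2 separate ones, and Rsad2 and Ifit3 carry 1 each. The window of Cmpk2 has no match to these letters, which says nothing about the factor. By the core, 12 of 17 tested members with one and 5 of 7 without one were lower after carbon tetrachloride, and 7 of 17 and 4 of 7 had their lowest value on carbon tetrachloride replicate 3. No test was made of these counts.

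The question of the comparison is which genes of the cortex differ between treated rats and those given corn oil. Values are log2 signal relative to the array's 75th percentile, and a change is the mean of the carbon tetrachloride arrays minus the mean of the corn oil arrays, with the SE of limma's moderated fit. None of the 30 members passed an adjusted p of 0.05 in limma, adjusted by Benjamini-Hochberg over all transcripts, where 1 of 31193 transcripts did (0.00321%). Their adjusted p ran from 0.768 to 0.993. At an unadjusted p under 0.05 there was 1 member, Rsad2, where the share over all transcripts was 6.3% (2.63% lower and 3.67% higher). By the tested probe, Rsad2 was also the 1 member whose groups did not overlap, with each treated array lower. That pattern was found in 5.27% of all transcripts, while 0 members were higher on each treated array, against 7.54% of all transcripts. Other members overlapped between the groups.

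Fewer cells of a type and less RNA per cell cannot be told apart in whole cortex. Of the members 23 were lower and 7 higher (76.7% lower, against 47.7% of all transcripts), with a median log2 change of -0.08, against 0.0077 over all transcripts. Many members were low or high on the same arrays, as given further on, so their signs are not separate observations of the treatment. The 95% interval of the change lay inside a 2-fold change in either direction for 28 members. Its bounds passed that size for Ifi44 at the lower end (-1.29) and Ifi27 at the upper end (1.21). Over all 6 arrays, with both groups pooled, the median distance between a member's lowest and highest array was 0.63, against 0.39 over all transcripts. The median SE was 0.17, against 0.11 over all transcripts.

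**Figure D1:**
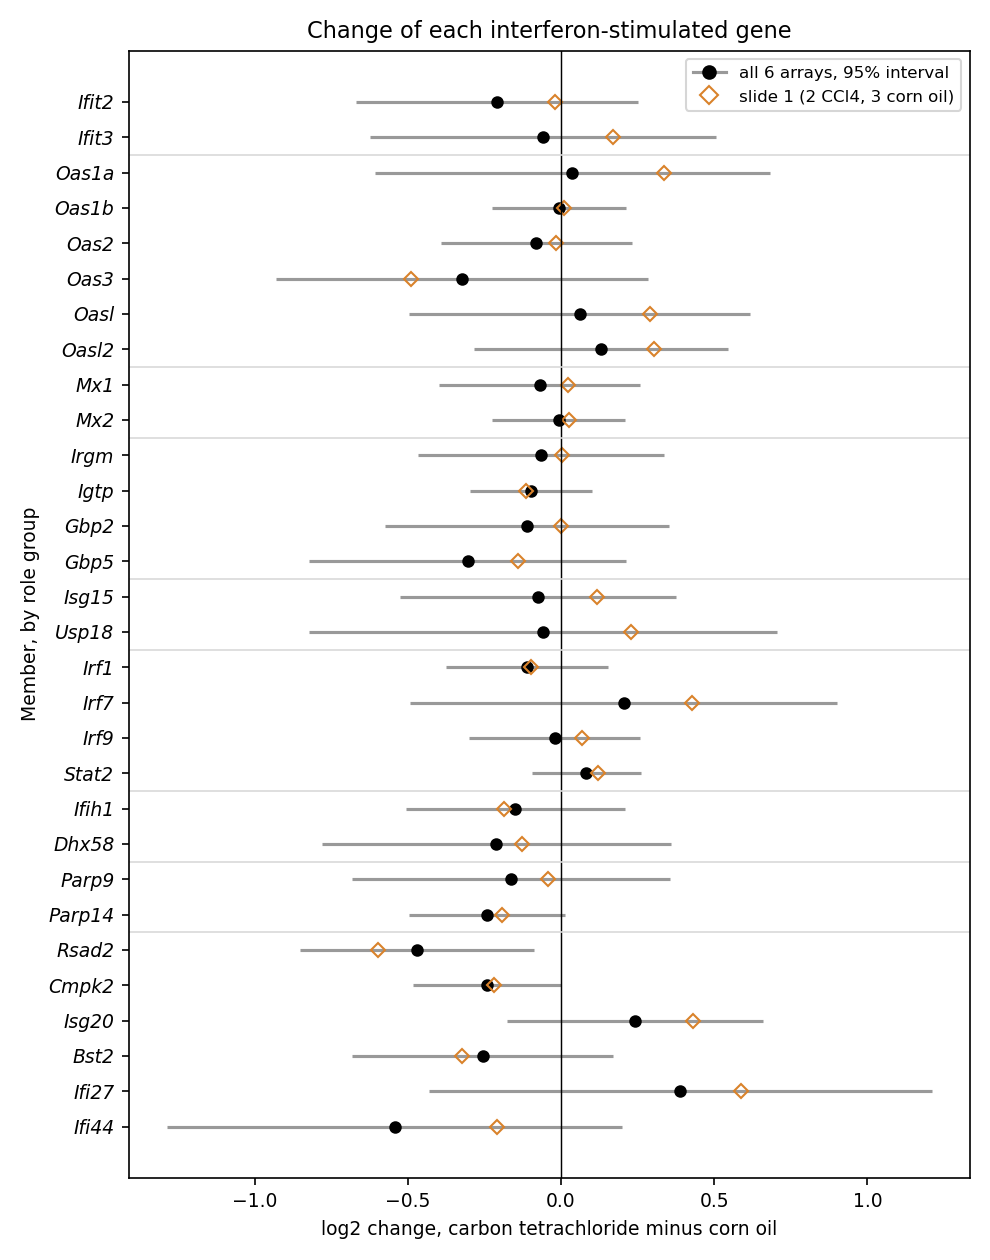
Log2 change of the 30 tested members, carbon tetrachloride minus corn oil, grouped by role. Filled points and bars are the fit over all 6 arrays with its 95% interval, and open diamonds are the change within slide 1, where 15 members were lower and 15 higher.

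Among effectors, Rsad2 encodes viperin, a radical enzyme that makes a chain-terminating nucleotide, and Cmpk2, its neighbour on the chromosome with no protein-coding gene between them, encodes a mitochondrial nucleotide kinase. Rsad2 had a log2 signal of 0.21, 0.52 and 0.75 on the carbon tetrachloride arrays, against 1.00, 1.08 and 0.80 on the corn oil arrays. Every treated value lies below every control value, by the narrowest margin between carbon tetrachloride replicate 3 and corn oil replicate 3. The change was -0.47 ± 0.16 (SE, n = 3 per group), a ratio of 0.723, with an adjusted p of 0.768 in limma. Within slide 1 it was -0.60, so it was larger without replicate 3. Cmpk2 had -0.15, -0.01 and -0.15 on the carbon tetrachloride arrays, against 0.23, 0.22 and -0.03 on the corn oil arrays. Only carbon tetrachloride replicate 2 reached above the lowest control, corn oil replicate 3. Its change was -0.24 ± 0.10, and -0.22 within slide 1.

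Both genes were read by more than 1 probe. The second probe of Rsad2 had -0.60, -0.35 and -0.06 on the carbon tetrachloride arrays, against -0.08, 0.12 and 0.06 on the corn oil arrays, a change of -0.37. In that probe carbon tetrachloride replicate 3 lay just above corn oil replicate 1, so the groups overlapped. The second probe of Cmpk2 had -2.79, -2.84 and -2.99 on the carbon tetrachloride arrays, against -2.64, -2.60 and -2.71 on the corn oil arrays, a change of -0.23 with no overlap.

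Bst2 encodes tetherin, which holds budding virus at the cell surface. Its log2 signal was 1.72, 1.76 and 1.94 on the carbon tetrachloride arrays, against 2.40, 2.01 and 1.76 on the corn oil arrays. The treated arrays lay together and corn oil replicate 1 stood well above the rest, with corn oil replicate 3 among the treated values. Its change was -0.26 ± 0.17, and its second probe gave -0.29. Within slide 1 it was -0.32, and without corn oil replicate 1 it was -0.08. Isg20, an exonuclease of RNA, was one of the few members with a higher mean after treatment. It had -0.48, -0.54 and -1.09 on the carbon tetrachloride arrays, against -0.98, -0.88 and -0.97 on the corn oil arrays. Carbon tetrachloride replicates 1 and 2 lay above all controls and replicate 3 below all of them. The change was 0.24 ± 0.17 over all arrays and 0.43 within slide 1.

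Ifi27 encodes a small mitochondrial membrane protein and Ifi44 a cytoplasmic protein of unsettled function. Ifi27 had 5.02, 5.47 and 4.65 on the carbon tetrachloride arrays, against 4.50, 5.27 and 4.19 on the corn oil arrays. Both groups spread widely, with the second replicate high in each, and the groups overlapped. Its change of 0.39 ± 0.33 carried the highest SE of the members. It was 0.59 within slide 1 and ran from 0.16 without corn oil replicate 3 to 0.70 without corn oil replicate 2. Ifi44 had -0.01, 0.03 and -0.99 on the carbon tetrachloride arrays, against 0.39, 0.32 and -0.05 on the corn oil arrays. Carbon tetrachloride replicate 3 stood -1.13 from the mean of the other 5 arrays, while the other treated arrays lay near corn oil replicate 3. The change was -0.54 ± 0.30 over all arrays and -0.21 within slide 1. All 3 probes of Ifi44 were lowest on carbon tetrachloride replicate 3, with changes of -0.54, -0.38 and -0.59.

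**Figure D2:**
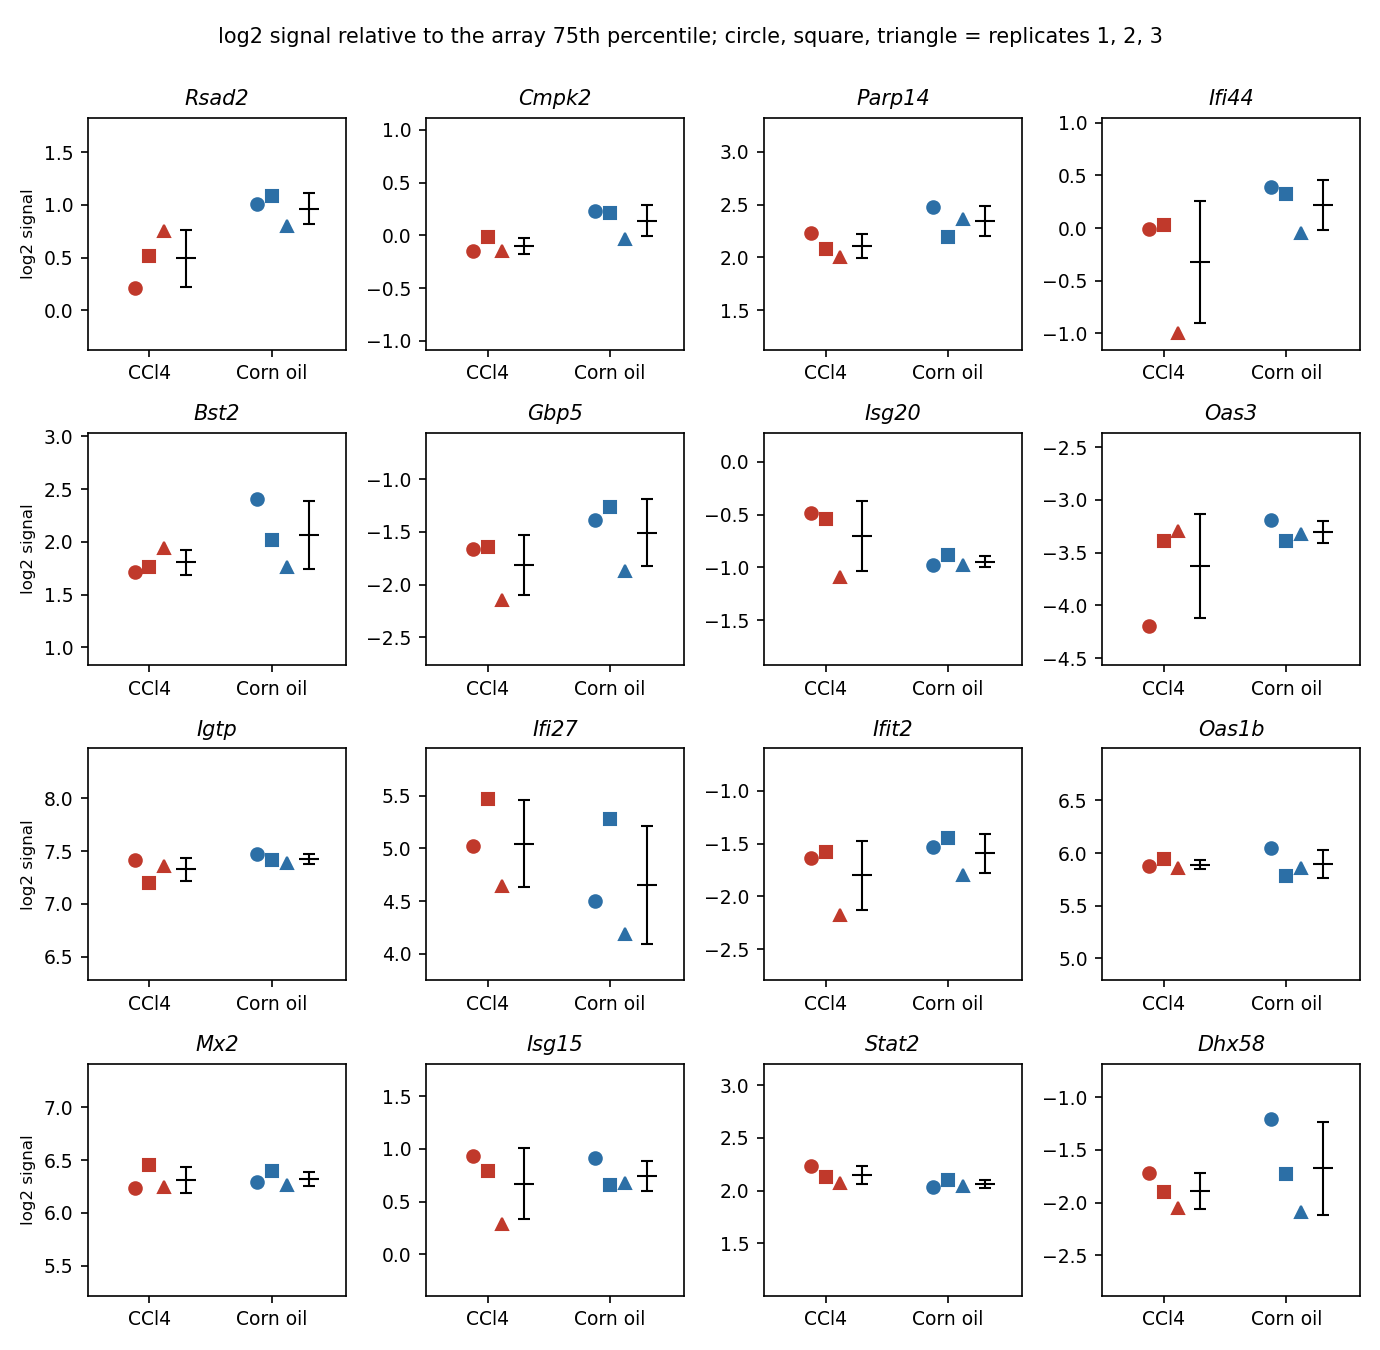
Log2 signal of 16 members by array: the 10 of smallest p and the brightest of each role group. Carbon tetrachloride arrays are on the left of each panel and corn oil arrays on the right, bars give mean ± SD (n = 3), and all panels span the same height. The groups of Rsad2 do not overlap, and those of the other 15 members do.

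In the IFIT family, Ifit1 encodes a protein that binds viral RNA lacking the marks of host messages. Ifit2 had a log2 signal of -1.64, -1.58 and -2.18 on the carbon tetrachloride arrays, against -1.53, -1.45 and -1.80 on the corn oil arrays. Carbon tetrachloride replicate 3 was lowest and the other treated arrays lay among the controls. The change was -0.21 ± 0.19 over all arrays and -0.02 within slide 1. Its neighbour Ifit3 had -0.06 ± 0.23, and its value within slide 1 was 0.17. The brighter probe of Ifit3 was lowest on carbon tetrachloride replicate 3 and the dimmer one on corn oil replicate 3, with a change of 0.18 for the dimmer one. Ifit1, of the same cluster, was well above background only on carbon tetrachloride replicate 2, and no change is given.

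The OAS enzymes make short oligoadenylates that activate the nuclease RNase L, and the OAS-like genes Oasl and Oasl2 belong to the same family. Of the 6 members 3 were lower and 3 higher, with a median change of 0.02 over all arrays and 0.15 within slide 1. Oas1b had 5.87, 5.94 and 5.86 on the carbon tetrachloride arrays, against 6.05, 5.78 and 5.86 on the corn oil arrays. These arrays differed little, with a change of -0.0068 ± 0.09 and a 95% interval from -0.23 to 0.21. Oas1a, chosen after its values were seen, had 1.18, 1.08 and 0.23 on the carbon tetrachloride arrays, against 0.93, 0.81 and 0.64 on the corn oil arrays. Carbon tetrachloride replicates 1 and 2 lay above all controls and replicate 3 below all of them. Its change was therefore 0.04 ± 0.26 over all arrays and 0.34 within slide 1, and its second probe followed the same order with -0.0029 and 0.26. Oas3 had -4.20, -3.39 and -3.29 on the carbon tetrachloride arrays, against -3.19, -3.39 and -3.33 on the corn oil arrays. Here carbon tetrachloride replicate 1 alone was low, and the change was -0.32 ± 0.25. It was -0.49 within slide 1 and -0.04 without carbon tetrachloride replicate 1. Oasl (0.06 ± 0.23) and Oasl2 (0.13 ± 0.17), which are adjacent genes, were again lowest on carbon tetrachloride replicate 3, and Oas2 had -0.08 ± 0.13. OAS genes have close copies in the rat, and hybridisation of 1 transcript to the probe of another was not tested.

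MX proteins act against viral particles, and the other interferon-inducible GTPases against vacuoles that shelter intracellular pathogens. Mx2 had 6.23, 6.45 and 6.24 on the carbon tetrachloride arrays, against 6.29, 6.40 and 6.27 on the corn oil arrays. The values overlapped throughout, with a change of -0.0081 ± 0.09. The second probe of Mx2 was far dimmer, with a mean of -3.21 against 6.31, and gave a change of 0.17. Mx1 had -0.07 ± 0.13 with its brighter probe and -0.41 with its dimmer one, and both were lowest on carbon tetrachloride replicate 3. All 4 GTPases were lower by their means, with a median change of -0.10 over all arrays and -0.06 within slide 1, where Irgm had 0.002. Igtp, an immunity-related GTPase, had 7.42, 7.20 and 7.36 on the carbon tetrachloride arrays, against 7.48, 7.41 and 7.38 on the corn oil arrays. Carbon tetrachloride replicates 2 and 3 lay below all controls, and replicate 1 above 2 of them, for a change of -0.10 ± 0.08. The second probe of Igtp was far dimmer, with a mean of 0.04 against 7.38, and gave a change of -0.05. It did not repeat this order: carbon tetrachloride replicate 3 had 0.12, and the lowest value was on corn oil replicate 1 (-0.05). Gbp5, a guanylate-binding protein, had -1.66, -1.64 and -2.14 on the carbon tetrachloride arrays, against -1.39, -1.27 and -1.87 on the corn oil arrays. Carbon tetrachloride replicate 3 was lowest and corn oil replicate 3 next, with a change of -0.31 ± 0.21 over all arrays and -0.14 within slide 1. Gbp2 had -0.11 ± 0.19 and Irgm -0.07 ± 0.16, both with their lowest value on corn oil replicate 3.

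Isg15 encodes a ubiquitin-like protein that is joined to other proteins, and Usp18 the protease that removes it and damps receptor signalling. Isg15 had 0.93, 0.79 and 0.29 on the carbon tetrachloride arrays, against 0.91, 0.65 and 0.67 on the corn oil arrays. Carbon tetrachloride replicate 1 was highest of all and replicate 3 lowest of all. Its change was -0.08 ± 0.18 over all arrays and 0.12 within slide 1. Usp18, chosen after its values were seen, had -1.69, -1.72 and -2.56 on the carbon tetrachloride arrays, against -1.46, -2.10 and -2.25 on the corn oil arrays. Replicate 3 of the treated group was again lowest, and corn oil replicate 1 highest. Its change was -0.06 ± 0.31 over all arrays and 0.23 within slide 1, and all 3 of its probes were lowest on that replicate.

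Of the transcription factors, Stat2 acts in a complex with Irf9, Irf7 drives type I interferon genes, and Irf1 is a target of interferon gamma. Stat2 had 2.24, 2.13 and 2.07 on the carbon tetrachloride arrays, against 2.04, 2.10 and 2.04 on the corn oil arrays. Carbon tetrachloride replicates 1 and 2 lay above all controls, and replicate 3 below corn oil replicate 2, so the groups overlapped. The change was 0.08 ± 0.07, the smallest SE of the members. The second probe of Stat2 was far dimmer, with a mean of -2.66 against 2.10, and gave a change of 0.23. Irf1 had -0.11 ± 0.11, Irf9 -0.02 ± 0.11 and Irf7 0.20 ± 0.28. Irf7 was highest on carbon tetrachloride replicate 2 and lowest on corn oil replicate 3, and its change was 0.43 within slide 1 and -0.02 without corn oil replicate 3.

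Ifih1 and Dhx58 encode the RNA sensors MDA5 and LGP2. Dhx58 had -1.71, -1.89 and -2.05 on the carbon tetrachloride arrays, against -1.21, -1.73 and -2.09 on the corn oil arrays. The treated values lay within the span of the controls, whose replicate 1 was highest and replicate 3 lowest, and the change was -0.21 ± 0.23. Its 2 other probes gave 0.21 and 0.12, so its direction is not settled. Ifih1 had -0.15 ± 0.15. Parp14, an ADP-ribosyltransferase of cytokine signalling, had 2.23, 2.08 and 2.00 on the carbon tetrachloride arrays, against 2.48, 2.20 and 2.36 on the corn oil arrays. Carbon tetrachloride replicates 2 and 3 lay below all controls, and replicate 1 above corn oil replicate 2, for a change of -0.24 ± 0.10. All 4 probes of Parp14 were lower, from -0.37 to -0.24. In the probe with -0.37 the groups did not overlap, and in the others they did. Parp9, on the same chromosome, had -0.16 ± 0.21.

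**Figure D3:**
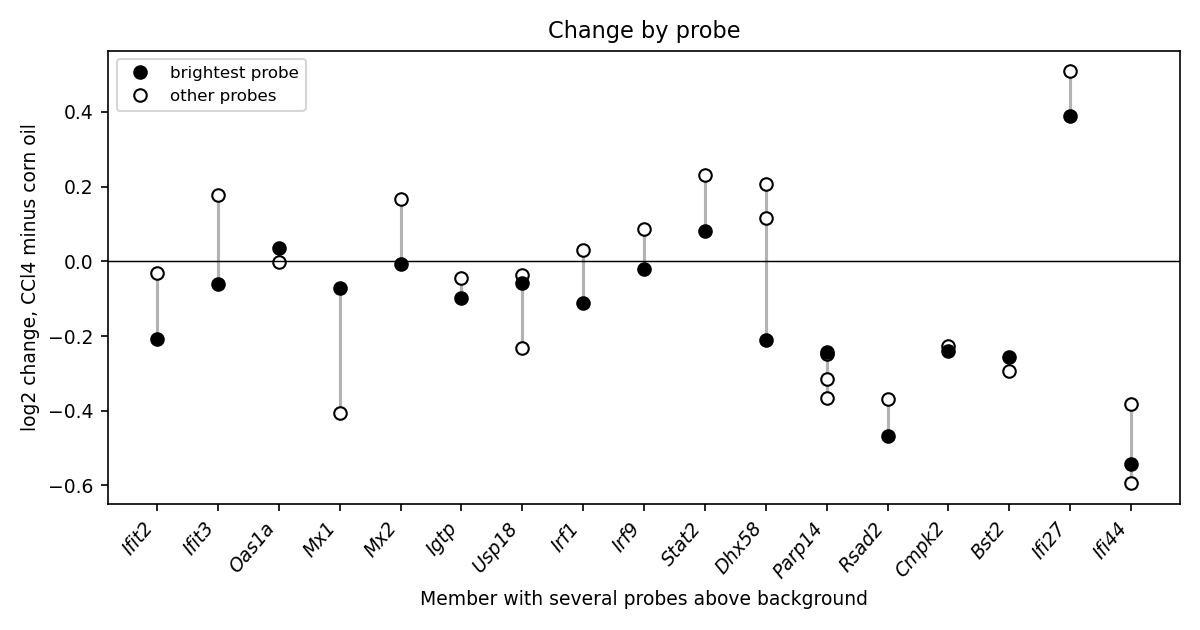
Log2 change, carbon tetrachloride minus corn oil, of each probe of the 17 members with several probes above background on all arrays. The probes of 11 members agree in sign, with Rsad2, Cmpk2, Parp14, Bst2 and Ifi44 lower in each, and those of 6 differ.

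Single arrays stood out across many members. Carbon tetrachloride replicate 3 held the lowest value for 14 of 30 members (46.7%), against 19.7% of all transcripts, and lay below the member's own mean in 26. Corn oil replicate 1 held the highest value for 16 (53.3%), against 19.3% of all transcripts, while corn oil replicate 3 lay below the member's own mean in 23. By array, the median distance from the member's own mean was 0.06, 0.07 and -0.22 on the carbon tetrachloride arrays, against 0.18, 0.08 and -0.11 on the corn oil arrays. Over all transcripts it stayed between -0.01 and 0.02. This count of 14 ran from 13 to 17 with other scalings, background corrections, values or probes.

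**Figure D4:**
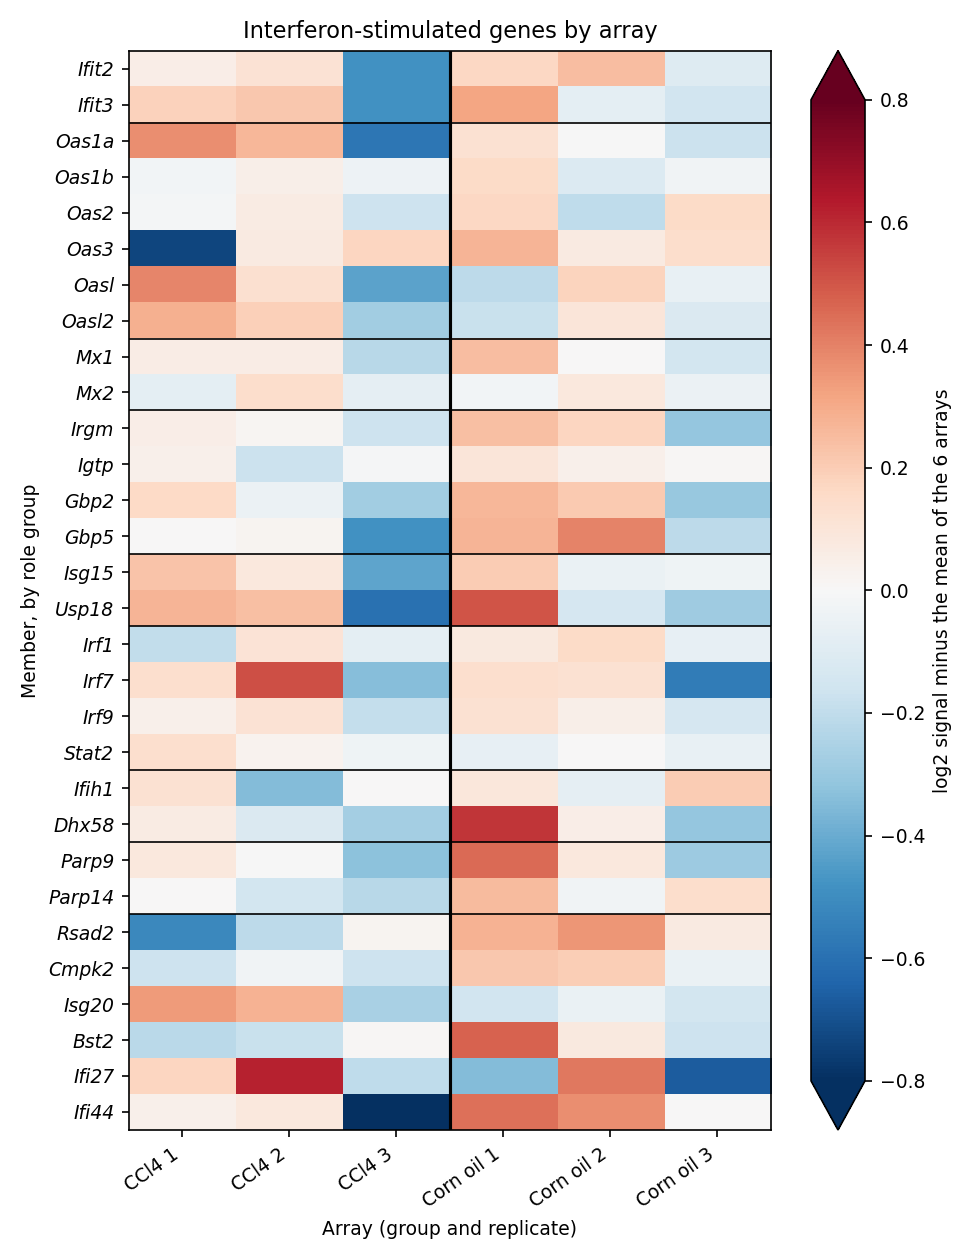
Log2 signal of the 30 tested members on each array minus the member's mean over the 6 arrays, with carbon tetrachloride arrays left of the line and corn oil arrays right of it. Rows are grouped by role. The column of carbon tetrachloride replicate 3 lies below the member's mean for 26 members and that of corn oil replicate 1 for 6.

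The members lowest on carbon tetrachloride replicate 3 were Ifit2, Ifit3, Oas1a, Oasl, Oasl2, Mx1, Gbp5, Isg15, Usp18, Irf9, Parp9, Parp14, Isg20 and Ifi44. They cover 8 of the 9 role groups, the RNA sensors being the exception. Replicate 3 stood -1.13 from the mean of the other arrays for Ifi44, -0.72 for Usp18, -0.70 for Oas1a, -0.58 for Ifit3, -0.58 for Ifit2 and -0.58 for Gbp5. It stood apart little or not at all for Rsad2 (0.02), Bst2 (0.0094), Ifih1 (0.0031), Igtp (-0.01) and Stat2 (-0.04). Rsad2, Cmpk2, Bst2, Oas3, Mx2 and Irf1 had their lowest value on carbon tetrachloride replicate 1 instead.

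**Figure D5:**
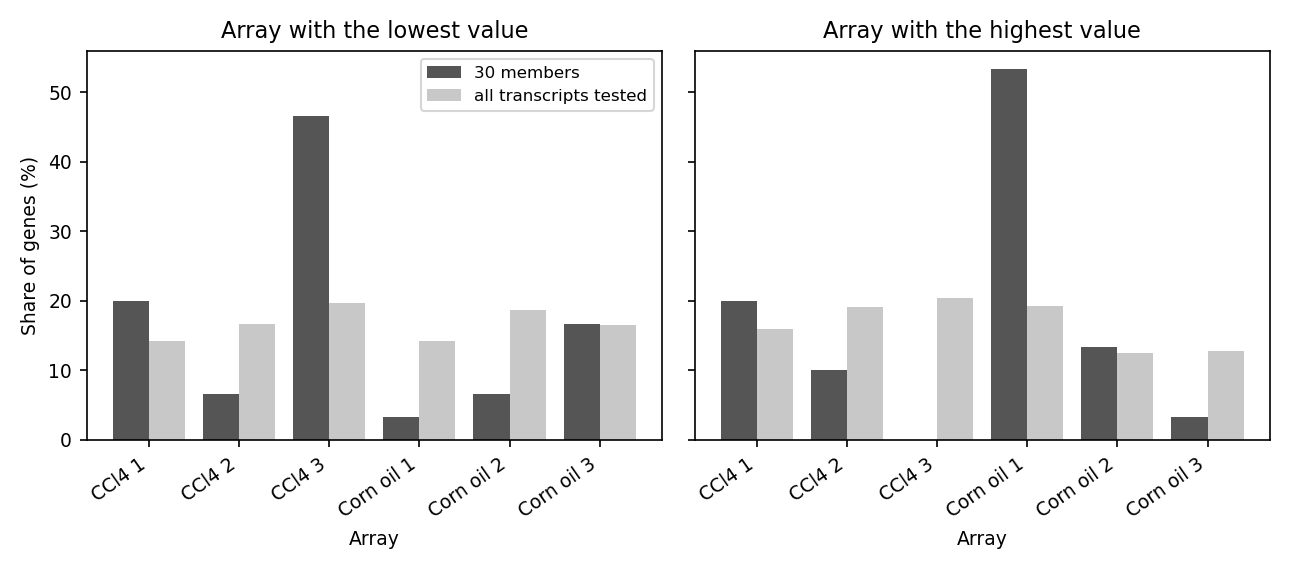
Share of genes whose lowest value (left) or highest value (right) lay on each array, for the 30 members and for all transcripts tested. Carbon tetrachloride replicate 3 was lowest for 46.7% of members, and corn oil replicate 1 was highest for 53.3%.

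Within slide 1 the balance was even. There 15 members were lower and 15 higher (50% lower, against 46.7% of all transcripts), with a median change of 0.00013, against 0.01 over all transcripts. The sign was the opposite there for 8 members, namely Ifit3, Oas1b, Mx1, Mx2, Irgm, Isg15, Usp18 and Irf9. None passed an adjusted p of 0.05, as for all transcripts (0%). At an unadjusted p under 0.05 there were 4 members, Isg20 (0.43), Oas1a (0.34) and Oasl2 (0.30) on the higher side and Rsad2 (-0.60) on the lower, where the share over all transcripts was 6.81%. Without corn oil replicate 1 the count of lower members was 15 as well.

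Genes of the wider pathway were read from the same fit. The list of 96 further pathway genes held 69 with a probe and 62 tested, of which 0 passed an adjusted p of 0.05 in limma, the lowest being 0.714, and 39 were lower and 23 higher. Within slide 1 the 62 were even, with 31 lower and 31 higher. The share lower over all transcripts was 47.7% over all arrays and 46.7% within slide 1. At an unadjusted p under 0.05 there were 5, all lower, where the share over all transcripts was 6.3% in either direction and 2.63% lower. Groups did not overlap for 5 genes on the lower side and 4 on the higher, against 5.27% and 7.54% of all transcripts. By role, 6 of 14 genes of receptors and signalling were lower and 8 higher, 10 of 13 genes of sensing and induction were lower and 3 higher, and 22 of 34 other interferon-induced genes were lower and 12 higher. Within slide 1 the lower and higher counts were 3 and 11 for receptors and signalling, 9 and 4 for sensing and induction, and 18 and 16 for the other induced genes. Of the interferons themselves, Ifnb1 and Ifng were not well above background on any array, and Ifna4 was the 1 tested, with a change of -0.11 ± 0.11. The receptor gene Ifnar1 had -0.03 ± 0.08, and Ifnar2 matched no probe. Ifngr1 had 2.68, 2.69 and 2.75 on the carbon tetrachloride arrays, against 2.49, 2.63 and 2.47 on the corn oil arrays. Every treated value lies above every control value, for a change of 0.18 ± 0.07 with an adjusted p of 0.791 in limma. Ifngr2 had 0.13 ± 0.10, Pias1, an inhibitor of cytokine signalling, 0.11 ± 0.06 and Il10rb, a receptor chain for interferon lambda and interleukins, 0.08 ± 0.08. Socs1, a feedback inhibitor of JAK kinases, had -0.21 ± 0.29 over all arrays and 0.08 within slide 1.

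Among genes of sensing and induction, Myd88, the adaptor of Toll-like receptors, had 3.13, 3.04 and 3.23 on the carbon tetrachloride arrays, against 3.34, 3.38 and 3.37 on the corn oil arrays, with no overlap and a change of -0.23 ± 0.07. Sting1, the adaptor of cytosolic DNA sensing, had -0.21 ± 0.09, also without overlap, and Irf3 0.12 ± 0.07. Of the other interferon-induced genes, Cxcl9, a T cell attractant induced by interferon gamma, had -4.21, -4.63 and -4.46 on the carbon tetrachloride arrays, against -3.10, -3.16 and -3.94 on the corn oil arrays. The groups did not overlap, and the change was -1.03 ± 0.25 with an adjusted p of 0.714 in limma. The related chemokines Cxcl10 and Cxcl11 had -0.44 ± 0.21 and -0.32 ± 0.11, Rtp4, a chaperone of receptors, -1.14 ± 0.43 and the nuclease gene Trex1 0.13 ± 0.06. For Rtp4 the groups overlapped, with corn oil replicate 1 (-0.01) below carbon tetrachloride replicate 2 (0.03). Within slide 1 Cxcl9 had -1.02, Cxcl10 -0.22, Cxcl11 -0.40 and Rtp4 -0.89. Of the 34 other interferon-induced genes tested, 13 had their lowest value on carbon tetrachloride replicate 3.

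Markers of other cell types were read beside these values. No marker of any list passed an adjusted p of 0.05 in limma, the lowest being 0.187, for Cd8b. Of the 10 T cell markers tested, Cd3e, Cd2 and Cd5 were well above background on all corn oil arrays but on 2, 1 and 0 treated arrays, and passed the filter through the corn oil group alone, so they enter no count. The other 7 (Cd3d, Cd3g, Cd247, Cd8a, Cd8b, Cd4 and Lck) were above background on every array and lower by their means, and for 6 of them, Cd4 being the exception, the groups did not overlap (5.27% of all transcripts in that direction). Their median change was -0.70 over all arrays and -0.77 within slide 1. Their summed linear signal was 1.54 to 1.63 times the array's 75th percentile in the carbon tetrachloride group, against 2.26 to 2.67 times in the corn oil group. On the treated arrays their median distance from the gene's own mean was -0.42, -0.42 and -0.23. That median was least low on replicate 3, but single markers differed, and Cd3d had its lowest value there.

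Other leukocyte lists were read the same way. Of the 11 macrophage and dendritic markers tested, Itgam passed through the carbon tetrachloride group alone. The 10 others had a median change of -0.04 over all arrays and -0.02 within slide 1, and sums of 91.5 to 103.8 in the carbon tetrachloride group, against 88.3 to 125.5 in the corn oil group. The 6 natural killer and cytotoxic markers had a median of -0.13 over all arrays and -0.16 within slide 1, and sums of 1.31 to 1.57 in the carbon tetrachloride group, against 1.54 to 1.76 in the corn oil group, and Ncr1 was well above background on 1 array. Of the B and plasma cell markers, Tnfrsf17 passed through the corn oil group alone. The 2 others had a median of -0.38 over all arrays and -0.25 within slide 1, and sums of 0.0657 to 0.0942 in the carbon tetrachloride group, against 0.0744 to 0.146 in the corn oil group. The 3 neutrophil markers tested had a median of -0.06 over all arrays but 0.22 within slide 1, where all 3 were higher, and sums of 0.349 to 0.798 in the carbon tetrachloride group, against 0.500 to 0.626 in the corn oil group. Their median on carbon tetrachloride replicate 3 was -0.71 from the gene's own mean, and Elane was not well above background on any array. The 4 plasmacytoid dendritic cell markers tested had a median of -0.15 over all arrays and -0.05 within slide 1. Their sums were 5.57 to 5.76 in the carbon tetrachloride group, against 5.58 to 7.66 in the corn oil group. This list shares Bst2 with the members, and Siglech matched no probe. Bst2 and Tcf4 make up most of the sums, with mean log2 signals of 1.80 and 1.05 in the carbon tetrachloride group, against -4.22 for Irf8 and -4.50 for Spib.

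The 5 endothelial markers were all higher by their means, with a median of 0.08 over all arrays and 0.19 within slide 1, and 2 of them, Nos3 (0.40) and Tek (0.23), had groups that did not overlap (7.54% of all transcripts in that direction). The adjusted p in limma was 0.689 for Nos3 and 0.768 for Tek. Sums of the 5 endothelial markers were 26.5 to 29.5 in the carbon tetrachloride group, against 24.3 to 29.8 in the corn oil group. Of the 5 podocyte markers 4 were higher, with a median of 0.06 over all arrays and 0.21 within slide 1. Their sums were 29.8 to 32.8 in the carbon tetrachloride group, against 25.1 to 32.9 in the corn oil group. Median changes of the other tubule lists were -0.03 for the loop and distal tubule and 0.0067 for the collecting duct over all arrays, and 0.0064 and 0.07 within slide 1. Sums for the loop and distal tubule were 389 to 572 in the carbon tetrachloride group, against 382 to 551 in the corn oil group. Those for the collecting duct were 124.5 to 143.4 in the carbon tetrachloride group, against 118.8 to 150.7 in the corn oil group. The 3 blood markers tested had a median of -0.05 over all arrays and -0.11 within slide 1, and sums of 128.6 to 242.7 in the carbon tetrachloride group, against 163.6 to 223.4 in the corn oil group. The part of these cells in the members' values was not tested.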

How the data were processed

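The members, gene lists and rules were chosen with earlier results of these data known. The scanner files, deposited by the authors, hold the processed spot intensity, background-subtracted and linear per the file headers, from Agilent Feature Extraction 10.7.1.1 (10.7 per the submitters' processing notes). The value table deposited by the authors is also a linear intensity: dividing the processed signal by a constant for each array (1015 to 1092), close to its 75th percentile, gives the column. Column medians were 0.116, 0.115 and 0.111 for carbon tetrachloride replicates 1 to 3 and 0.118, 0.111 and 0.114 for corn oil replicates 1 to 3. No gene was centred, so scale, centring and direction are known.

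From the deposited intensity, the log2 signal minus each array's 75th percentile was computed. The 1439 control spots and spots with an outlier flag (0 to 25 per array) were left out. Tests covered probes well above background on every array of 1 group or of both (42400 of 61537 probes). Accessions were matched without version to RefSeq genes of GRCr8, for names only, since the array design names another build. This named 28206 probes (45.8%), and the others kept their accession. The tested probe of highest mean stands for its gene. The comparison used lmFit and eBayes of limma 3.58.1 under R 4.3.3, two-sided with a threshold of 0.05, and the code was tested on simulated data. Tables and figures were made with pandas 2.3.3 and matplotlib 3.10.9.

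Values on each array are given for the 10 members of smallest p and the brightest of each of 9 role groups. Of the pathway list, Ifnb1, Ifng, Ifnar1, Ifnar2, Ifngr1, Ifngr2, Cxcl9 and Cxcl10 are given, with up to 3 others of smallest p per sublist, and 1 gene that the rule takes is not reported here. Oas1a and Usp18 were added after their values were seen. Alternatives were other scalings, normexp background correction, the value table, other filters and probes, another variance model, the replicate number or slide as a block, and leaving out each array. The plan assumed a mean signal column for normexp, and median spot and background signals were used instead.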

Additional observations from a re-analysis of the deposited data

How the results depend on the processing

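No member passed an adjusted p of 0.05 in limma in any setting run, and the lowest adjusted p of a member was 0.576. The count of transcripts past the threshold, 1 here, was 0 with normexp under either scaling, with no filter, with the filter on all arrays, with an intensity trend and robust fitting, with the replicate block and with the slide block, and 0 to 2 when 1 array was left out. The replicate numbers do not pair the rats: deviations of rats with the same number had correlations of -0.02, -0.10 and -0.08. Under the replicate block 23 members were lower. With the slide block, which equals the fit within slide 1, 15 were lower, and leaving out 1 array gave 15 to 25, with 15 also without corn oil replicate 1. The median change ran from -0.16 to 0.00013 in those fits. Without single arrays, 3 to 5 members had probes that differed in sign, against 6 with all.

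The direction of the log2 change was kept throughout by 16 members and turned in at least 1 setting for 14. With normexp, the change of Mx2 was 0.027 under 75th percentile scaling and 0.033 under quantile normalization, which also gave Oasl -0.0065. The mean of a gene's probes gave Ifit3 0.059, Mx2 0.079, Irf9 0.034 and Dhx58 0.038. The slide block gave Ifit3 0.17, Oas1b 0.011, Mx1 0.022, Mx2 0.025, Irgm 0.0020, Isg15 0.12, Usp18 0.23 and Irf9 0.068. The dimmest tested probe, a setting chosen after seeing the data, gave Ifit3 0.18, Oas1a -0.0029, Mx2 0.17, Irf1 0.030, Irf9 0.088 and Dhx58 0.12. Leaving out 1 array gave ranges that cross 0 for Ifit3 from -0.18 to 0.17, Oas1a from -0.14 to 0.34, Oas1b from -0.065 to 0.068, Oasl from -0.12 to 0.29, Mx1 from -0.16 to 0.035, Mx2 from -0.080 to 0.031, Irgm from -0.24 to 0.038, Isg15 from -0.21 to 0.12, Usp18 from -0.21 to 0.23, Irf7 from -0.024 to 0.43, Irf9 from -0.094 to 0.068, Dhx58 from -0.42 to 0.022 and Parp9 from -0.35 to 0.022. The cause was not tested. Signal near background limits Ifit1, which has no usable value here.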
